A study of Mus musculus with 4 samples.

Results

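The 32 genes described here encode the fibrillar collagens, the elastic fibre and the surrounding interstitial matrix. They were chosen by symbol from the gene names of the 4 single-cell count matrices, and all 32 were found once among 32285 genes. Lung cells carrying tdTomato were sorted from mouse embryos at E16.5 (days of embryonic development), after tamoxifen had been injected into the mothers at E12.5. The parents were Myrf Fl/Fl;R26TdTomato/R26TdTomato mice and Wt1creERT2;Myrf Fl/Fl mice. The mutant libraries are labelled Wt1creER Myrf mutants, and the control libraries are labelled Cre controls. The Myrf alleles of the control embryos are not given in the sources used here. Wt1creERT2 is a Cre recombinase that needs tamoxifen and is made under control of Wt1, a gene of the mesothelium, so tdTomato marks cells in which Cre acted and their descendants. Each genotype was a pool of 3 to 5 lungs, picked by how the lungs looked and later typed by PCR. There are 2 libraries for each genotype, called control 1, control 2, mutant 1 and mutant 2 here. Nothing in the labels tells if both libraries of a genotype were made from different pools, so p-values measure only the spread between these libraries, which may be technical.

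The interstitial matrix is the protein network that cells secrete between them. Fibrillar collagens assemble into the cables that carry tension, and smaller collagens and leucine-rich proteoglycans bind along those cables and set their spacing. Elastic fibres have a core of elastin on a scaffold of fibrillin microfibrils, with fibulins and microfibril-associated proteins helping the assembly, and they give the lung its recoil. Adhesive proteins such as fibronectin, periostin, versican and tenascin-C make a looser, provisional matrix that is known from growing and healing tissue. The mesothelium is the single layer of cells that covers the lung and secretes matrix beneath it.

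Expression was measured as counts of unique molecular identifiers (UMIs), in which each captured transcript is counted once at its 3′ end, so transcript length does not enter. Levels are given as CPM, the UMIs of a gene divided by all UMIs of the same summed cells and scaled to 1e6. After quality filters, 281 cells of control 1, 3503 of control 2, 411 of mutant 1 and 4275 of mutant 2 were kept, with 8175944, 57965000, 20884697 and 80666128 UMIs. The median was 29175 UMIs per cell in control 1 and 38643 in mutant 1, against 14313 in control 2 and 15966 in mutant 2. Control 1 and mutant 1 are thus small, deep libraries, and control 2 and mutant 2 large, shallower ones. Any 2 libraries shared at most 4 cell barcodes.

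The cells were clustered without the 32 matrix genes, so that no level of these genes took part in defining a cell class. Other genes reported below, among them Des and the marker genes, were not left out. Their levels by class are therefore not independent of the classes. The 14 clusters were named from marker lists. The mesothelial-like class held 113 and 735 cells in the controls but 2 and 3 in the mutants. The muscle-like class, with Des, Tnnt2 and Actc1, held 0 and 10 control cells but 220 and 1259 mutant cells. Des itself stood at 1270 and 658 CPM in the muscle-like cells of the mutants and at 23.3 and 26.1 CPM in the mesothelial-like cells of the controls. Smooth muscle-like cells numbered 19, 155, 24 and 307 in control 1, control 2, mutant 1 and mutant 2, and fibroblast-like cells 76, 396, 73 and 1880. So the class named for the labelled cell type, mesothelial, took in 40.2% of the cells of control 1 and 21.0% of those of control 2. The mutant libraries held 5 such cells in all. Not counted here are 2038 barcodes of control 2 in a cluster called mixed, described below, which raised 10 of the 12 mesothelial markers. Myrf stood at 76.0 and 48.6 CPM in all control cells and at 19.1 and 7.20 CPM in all mutant cells. Which exons are floxed is not given in the sources used here, so a 3′ count of Myrf does not check the deletion.

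Before the results, 2 features of the libraries have to be known. In control 2, 2038 of 3503 barcodes fell in a cluster called mixed, against 13 barcodes in control 1, 1 in mutant 1 and 5 in mutant 2. It held 36.1% of the matrix UMIs of control 2. The cluster raised 10 of the 12 mesothelial markers, but 76.5% of the markers of all lists lay within 2-fold of the library's other cells. In control 2 its mesothelial list summed to 2048 CPM, against 4619 CPM in mesothelial-like cells. Its epithelial list summed to 911 CPM, against 47.7 CPM. These mixed barcodes are counted in the totals and kept apart from every class. The 32 genes together made up 1.55% of all UMIs in control 1, 1.34% in control 2 and 1.57% in mutant 1 but 0.901% in mutant 2. Mutant 2 was also the lowest library for matrix within the smooth muscle-like and the fibroblast-like class, at 0.824% and 0.756% of class UMIs against 1.33% to 1.77% and 1.06% to 1.62% in the other libraries. Whether depth per cell or free RNA has a part in this was not tested. Class levels should be read against those of classes that are not known as main sources of fibrillar collagen. Endothelial-like cells held 262, 865, 1765 and 582 CPM of the 6 fibrillar collagens, summed, in control 1, control 2, mutant 1 and mutant 2, and epithelial-like cells 4012, 591, 1517 and 725 CPM. Immune-like cells, of which control 2 had 17 and mutant 2 had 15, held 6962 and 2739 CPM there. Of these small classes, the immune-like cells and the epithelial-like cells of control 1 thus came nearest to fibroblast-like cells (4882, 8087, 4683 and 4074 CPM). Endothelial-like cells stayed well below them in each library. The epithelial-like cells of control 1 also held 1906 CPM of the mesothelial list, beside 2434 CPM of the epithelial list.

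Matrix production was divided between other classes in the mutants than in the controls. Mesothelial-like cells held 62.9% of the matrix UMIs of control 1 and 34.4% of those of control 2, a mean of 48.6% ± 20.1 (SD, n = 2). In the mutants they held 1.56% and 0.118%. Muscle-like cells held 74.8% of the matrix UMIs of mutant 1 and 45.3% of those of mutant 2, 60.1% ± 20.9 (SD, n = 2), and 0 and 0.319% in the controls. The 2 genotypes do not overlap in either share. With 2 libraries against 2, an exact permutation test cannot go below p = 0.33, so no p is given for the shares. Exact (Clopper-Pearson) 95% binomial intervals, which cover counting error only, reach from 62.6% to 63.1% for control 1 and from 34.3% to 34.5% for control 2, far narrower than the gap between the libraries. Without the mixed barcodes the mesothelial-like share of control 2 was 53.8%, closer to the 64.5% of control 1.

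Both classes held more of the matrix than of the RNA as a whole. Mesothelial-like cells had 50.4% and 27.7% of all UMIs in the controls, and muscle-like cells had 60.2% and 32.8% in the mutants. Matrix genes were 1.94% and 1.66% of the UMIs of mesothelial-like cells in the controls, and 1.95% and 1.25% of the UMIs of muscle-like cells in the mutants. These ranges overlap. Fibroblast-like cells held 20.7% and 19.6% of the matrix UMIs in the controls and 9.09% and 35.7% in the mutants, with 27.5%, 16.3%, 13.5% and 42.5% of all UMIs in the same order. Smooth muscle-like cells held 6.96%, 5.78%, 2.73% and 5.66%. The fibroblast-like shares of the mutants lay on either side of the controls. The smooth muscle-like shares were lower in both mutants, though mutant 2 lay just under control 2. This class held 499700 UMIs of all genes in control 1, 3381442 in control 2, 532067 in mutant 1 and 4995943 in mutant 2. Against the library totals, its part of all UMIs was also smallest in mutant 1. An unnamed cluster that expresses Rspo2 and Fgf10 held 3.72% and 2.62% of matrix UMIs in the controls and 8.22% and 11.9% in the mutants.

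**Figure D1:**
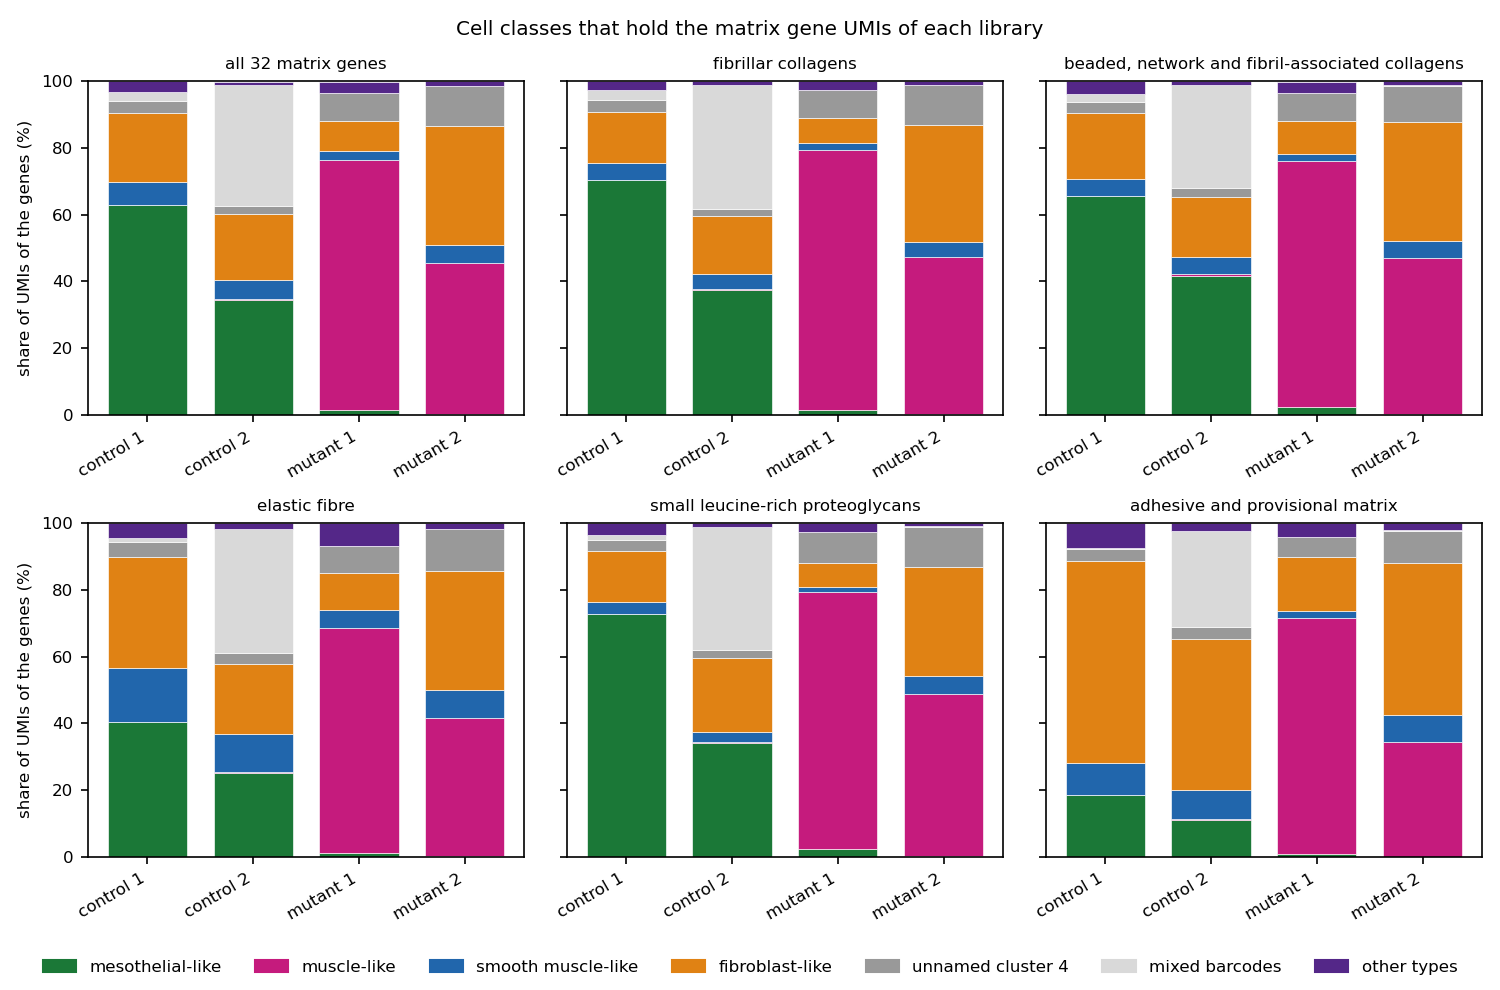
Share of the UMIs of all 32 matrix genes, and of each role, held by each cell class (percent, stacked to 100) in the 4 libraries. For all genes, mesothelial-like cells (green) hold 62.9% and 34.4% in the controls and muscle-like cells (magenta) hold 74.8% and 45.3% in the mutants; the pale grey part of control 2 is the mixed barcodes, at 36.1%.

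The division differed by role. Of the fibrillar collagen UMIs, mesothelial-like cells held 70.5% and 37.5% in the controls, and muscle-like cells held 77.9% and 47.3% in the mutants. The small leucine-rich proteoglycans followed the same pattern, with 72.7% and 34.2% in mesothelial-like control cells and 77.1% and 48.5% in muscle-like mutant cells. The adhesive and provisional matrix did not. In the controls fibroblast-like cells held the largest share of it, at 60.5% and 45.1%, and only 18.5% and 10.98% lay in mesothelial-like cells. In the mutants muscle-like cells held 71.0% and 34.4% of the same 5 genes, and fibroblast-like cells 16.2% and 45.6%. Elastic fibre genes were at their highest summed level in smooth muscle-like cells, of the classes with at least 15 cells, in each library, with 7062, 4747, 6441 and 2620 CPM in control 1, control 2, mutant 1 and mutant 2. Because that class is small, it held 16.3%, 11.5%, 5.43% and 8.43% of the elastic fibre UMIs. Eln alone gave 4349, 2208, 3479 and 642 CPM of its summed level. In both controls Eln, Fbn1 and Mfap2 were highest in smooth muscle-like cells. Fbln1, Mfap4 and Emilin1 were highest in fibroblast-like cells there, Fbln2 and Fbln5 in mesothelial-like cells, and for Fbn2 and Mfap5 the class differed.

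Each gene was then placed in the class where its CPM was highest. Only the mesothelial-like, muscle-like, smooth muscle-like and fibroblast-like classes were considered, in libraries with at least 15 cells of the class. In the controls, 9 genes were highest in mesothelial-like cells, 8 in smooth muscle-like cells and 7 in fibroblast-like cells in both libraries, and the class differed between the libraries for the other 8. In the mutants, 19 genes were highest in muscle-like cells and 3 (Eln, Mfap2 and Mfap4) in smooth muscle-like cells in both libraries, and the class differed for the other 10. The same placing was not done for all genes, so these counts have no background to be read against. The 9 mesothelial genes of the controls were Col1a1, Col1a2, Col3a1, Col5a2, Col12a1, Col14a1, Fbln2, Fbln5 and Ogn. All but Fbln5 were highest in muscle-like cells in both mutants.

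**Figure D2:**
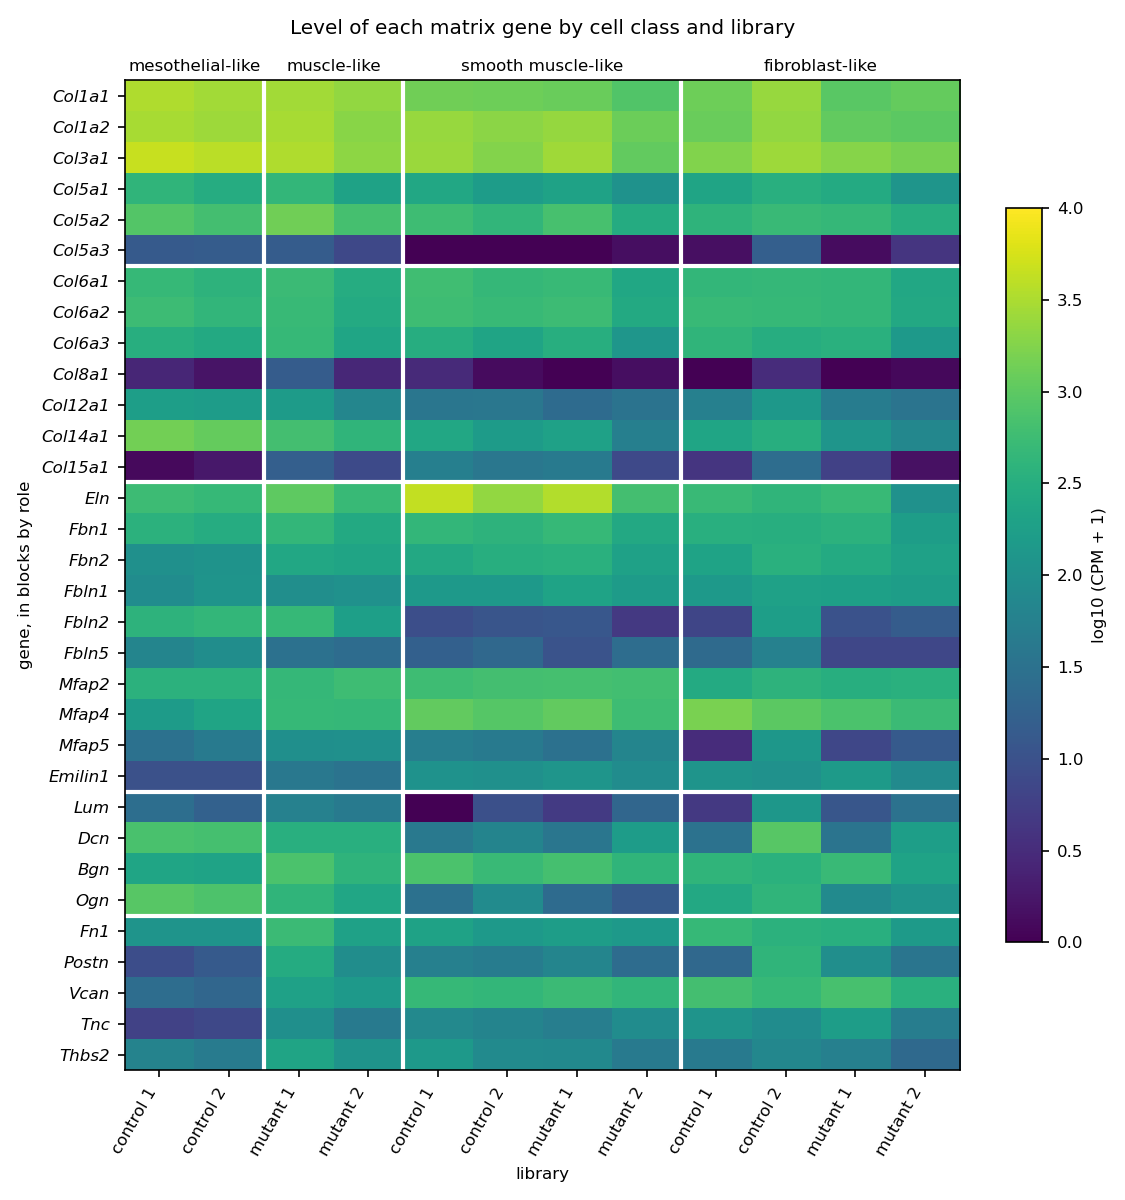
Level of each of the 32 genes, as log10 of CPM + 1 (colour), in mesothelial-like, muscle-like, smooth muscle-like and fibroblast-like cells. Libraries with at least 15 cells of the class are shown, and white lines part the classes and the roles. Eln is brightest in the smooth muscle-like columns, Col14a1 and Ogn in the mesothelial-like columns, and Vcan, Tnc and Emilin1 are darkest in the mesothelial-like columns.

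The controls alone show how the matrix was split before any comparison of genotypes. Of the 31 genes with a mean of at least 10 CPM in the higher of the 2 classes, 10 were higher in fibroblast-like than in mesothelial-like control cells without overlap, against 35.8% of all 9736 genes, and 8 of these by at least 2-fold, against 9.03%. Lower were 9, against 38.1%, and 3 of these by at least 2-fold (Col14a1, Fbln2 and Ogn), against 14.8%. Vcan, for example, stood at 634 and 474 CPM in fibroblast-like control cells and at 26.0 and 19.8 CPM in mesothelial-like ones, and Emilin1 at 117 and 103 CPM against 8.74 and 8.66 CPM. All 5 adhesive genes but Thbs2 were among the 10. Genes low in 1 class, such as Col15a1, Tnc and Emilin1, pass such a filter only through the class where they are high. With the mean taken over all 4 values, a filter added after the data were seen, Col15a1 drops out and 9 of 30 were higher (36.0% of all genes) and 9 lower (36.8%).

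The next comparison sets mesothelial-like control cells beside muscle-like mutant cells. It is a description without a test, because class and genotype cannot be told apart in it. Of the 31 matrix genes with a mean of at least 10 CPM in the higher class, 13 were higher in both muscle-like mutant libraries than in both mesothelial-like control libraries, as were 22.4% of all 9522 genes at that level. For 12 of them the difference was at least 2-fold, against 4.68% of all genes. In the other direction, 6 were lower without overlap, against 32.7% of all genes, and 4 of these by at least 2-fold, against 8.25%. The median difference was 0.27 on the log2 scale over the matrix genes and -0.07 over all genes (with 1 CPM added to each value, here and below). With the mean taken over all 4 values, Col15a1 drops out again: 12 of 30 were higher (21.9% of all genes), 11 of them at least 2-fold (3.88%), and 6 were lower (31.6%), 4 of them at least 2-fold (7.31%), with medians of 0.17 and -0.06.

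The type I and type V collagen chains overlapped between the 2 classes, and type III was lower in muscle-like mutant cells. Col1a1 and Col1a2 encode the chains of type I collagen, the main tension-bearing fibre. Col1a1 stood at 3333 and 2804 CPM in mesothelial-like control cells and at 2837 and 2243 CPM in muscle-like mutant cells. Col1a2 stood at 2995 and 2614 CPM against 3021 and 1976 CPM. Both genes overlapped between the classes. Col3a1, the chain of type III collagen, was at 4645 and 3890 CPM against 3282 and 2065 CPM, lower in both mutant libraries by 0.67 on the log2 scale. The minor chains Col5a1, Col5a2 and Col5a3, of the type V collagen that nucleates fibrils, all overlapped, with differences from -0.39 to 0.45 on the log2 scale. In fibroblast-like cells Col1a1 was lower, at 1318 and 2409 CPM in the controls and 956 and 1146 CPM in the mutants.

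The fibril-associated collagens split. Col14a1, which encodes a collagen that binds along type I fibrils, stood at 1401 and 1143 CPM in mesothelial-like control cells and at 648 and 410 CPM in muscle-like mutant cells. It was thus lower in both mutant libraries, by 1.26 on the log2 scale, and still well above fibroblast-like mutant cells, at 120 and 69.1 CPM. Col12a1, a relative of Col14a1, was at 177 and 162 CPM against 153 and 66.5 CPM. Col15a1, which encodes a collagen found next to basement membranes, was higher, with 0.243 and 0.810 CPM against 15.4 and 6.77 CPM. That is less than in smooth muscle-like control cells, at 52.0 and 37.0 CPM. The 3 type VI chains, which form beaded filaments, overlapped between the classes. Col8a1, a short-chain network collagen, was under 10 CPM on average and was not counted: it stood at 1.70 and 0.623 CPM against 13.5 and 1.82 CPM.

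Among the 10 elastic fibre genes, 5 were higher in muscle-like mutant cells without overlap, 1 was lower and 4 overlapped. Eln, elastin itself, stood at 544 and 474 CPM in mesothelial-like control cells and at 1009 and 486 CPM in muscle-like mutant cells, which overlap. Smooth muscle-like cells had more, with 4349 CPM in control 1, 2208 in control 2, 3479 in mutant 1 and 642 in mutant 2. The last value is the lowest of the 4 and lies within the range of the muscle-like cells. Mfap4, which encodes a microfibril-associated glycoprotein that binds elastin, was at 159 and 215 CPM against 472 and 465 CPM. Mfap5, a second microfibril component, was at 29.6 and 42.5 CPM against 97.7 and 101 CPM. Emilin1, which encodes a protein at the interface of elastin and microfibrils, was at 8.74 and 8.66 CPM against 38.5 and 31.98 CPM. All 3 were higher in both mutant libraries, by 1.32, 1.44 and 1.90 on the log2 scale. Mfap2 was higher too, at 369 and 373 CPM against 465 and 564 CPM, but by only 0.47. Fbn2, the fibrillin best known from developing tissue, was at 99.0 and 112 CPM against 251 and 213 CPM, while Fbn1, the other fibrillin, overlapped. Fbln5, which encodes a fibulin needed to lay elastin onto microfibrils, was lower, at 64.1 and 89.3 CPM against 29.5 and 25.3 CPM. Fbln2 was at 386 and 445 CPM against 483 and 178 CPM and overlapped.

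The small leucine-rich proteoglycans differed in both directions. Ogn (osteoglycin) stood at 917 and 753 CPM in mesothelial-like control cells and at 418 and 232 CPM in muscle-like mutant cells. Dcn (decorin), which binds collagen fibrils and limits their width, was at 701 and 661 CPM against 332 and 337 CPM. These 2 were lower in both mutant libraries, by 1.36 and 1.02 on the log2 scale. Bgn (biglycan) was at 222 and 205 CPM against 734 and 395 CPM, and Lum (lumican) at 26.9 and 16.3 CPM against 56.3 and 43.3 CPM, both higher in both mutant libraries.

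All 5 genes of the adhesive and provisional matrix were higher in muscle-like mutant cells, with no overlap and at least 2-fold. Postn (periostin) stood at 7.77 and 12.7 CPM in mesothelial-like control cells and at 283 and 91.8 CPM in muscle-like mutant cells, a difference of 4.07 on the log2 scale. Tnc (tenascin-C) was at 5.10 and 6.42 CPM against 97.1 and 41.2 CPM, a difference of 3.38. Vcan, which encodes the large hyaluronan-binding proteoglycan versican, was at 26.0 and 19.8 CPM against 191 and 144 CPM, a difference of 2.82. In each of the 3 genes the lower mutant library was above both controls several times over. Fn1 (fibronectin) was at 116 and 117 CPM against 529 and 196 CPM, and Thbs2, which encodes thrombospondin-2, a secreted glycoprotein of the matrix, at 61.4 and 45.6 CPM against 217 and 113 CPM. Fibroblast-like cells of the same mutant libraries had more Vcan, with 694 and 341 CPM, and an overlapping amount of Tnc, with 170 and 47.7 CPM. They had less Thbs2, with 55.1 and 21.99 CPM. The fibroblast marker list summed to 575 and 710 CPM in muscle-like mutant cells and to 473 and 566 CPM in mesothelial-like control cells. Of these sums, Ptn alone made up 408 and 527 CPM and 380 and 462 CPM. In fibroblast-like cells Ptn stood at 30.7, 1387, 33.1 and 191 CPM in control 1, control 2, mutant 1 and mutant 2, so the sums say little about fibroblast transcripts. The smooth muscle list summed to 8083 and 5505 CPM against 388 and 398 CPM. It shares Tagln, Cnn1 and Myocd with the list that named the muscle-like class. Whether other cells of those kinds have a part in the differences was not tested.

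**Figure D3:**
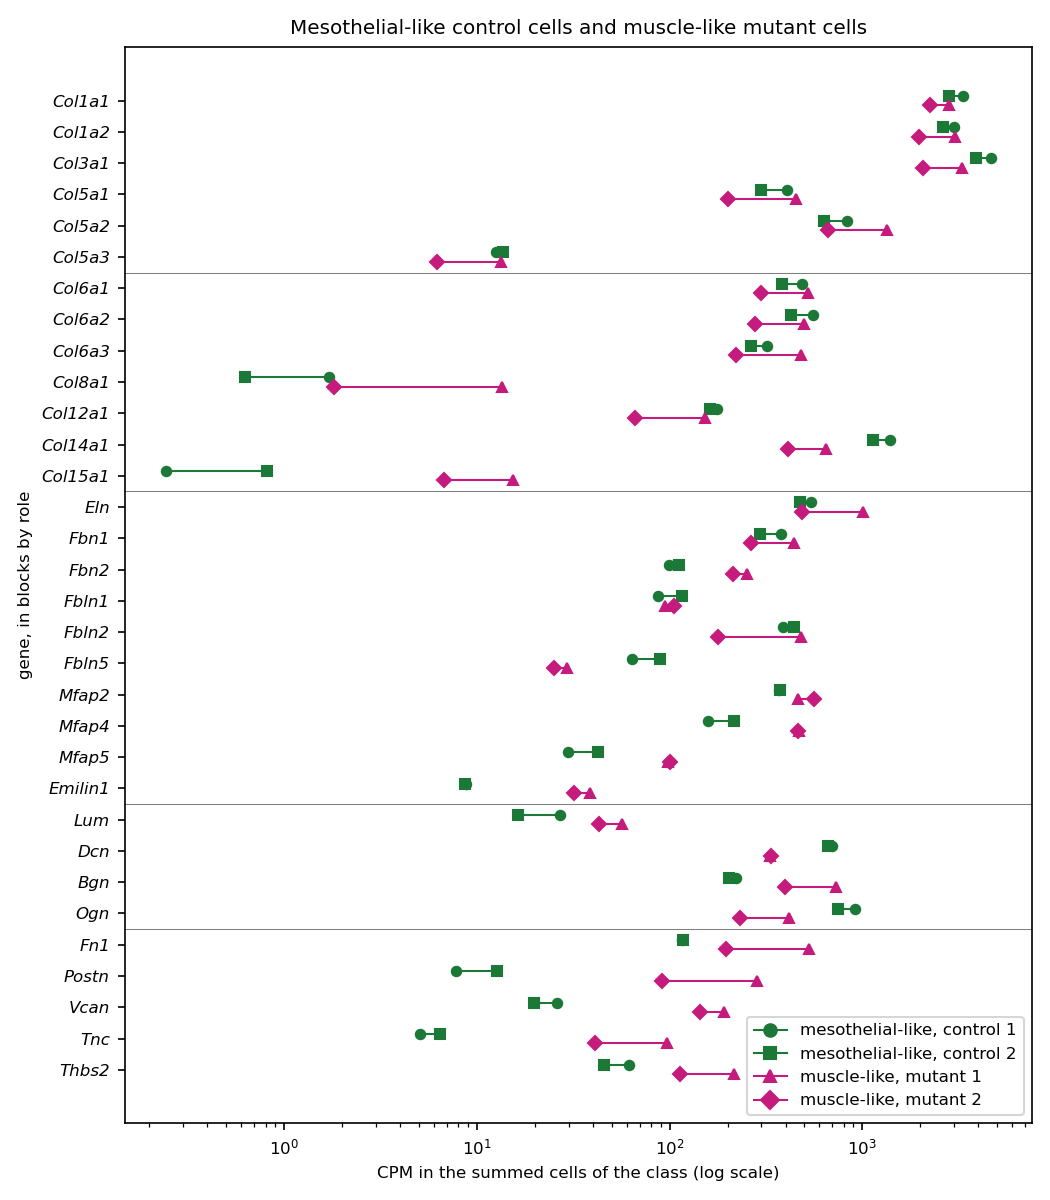
CPM (log scale) of each of the 32 genes in mesothelial-like control cells (green) and muscle-like mutant cells (magenta), with 1 point for each library and a line joining the libraries of a class. The magenta points of Postn, Tnc, Vcan, Fn1 and Thbs2 lie to the right of the green ones, and those of Fbln5, Ogn, Dcn and Col14a1 lie to the left.

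The matrix of the muscle-like cells also differed from that of the fibroblast-like cells beside them. In the mutants, 15 of 30 matrix genes with a mean of at least 10 CPM in the higher class were higher in both muscle-like samples than in both fibroblast-like samples, against 23.2% of all 9201 genes, and 13 of these by at least 2-fold, against 10.3%. Fbln2 differed most of the 30, at 483 and 178 CPM in muscle-like cells and 9.25 and 13.4 CPM in fibroblast-like cells. Only Fbln1, Vcan, Mfap4 and Emilin1 were lower without overlap, which is 4 genes, against 22.7% of all genes, and 2 of these by at least 2-fold, against 3.72%. With the mean over all 4 values, 14 of 29 were higher (21.1%), 12 of them at least 2-fold (8.46%), and 4 lower (22.8%). Set beside smooth muscle-like mutant cells, 11 of 30 were higher without overlap, against 20.4% of all 9343 genes, and all 11 by at least 2-fold, against 8.16%. Lower were 5, against 17.4%, with Emilin1 and Vcan by at least 2-fold, against 4.74%. Ogn stood at 418 and 232 CPM in muscle-like cells and 24.4 and 12.8 CPM in smooth muscle-like cells. Within the muscle-like class, the larger cluster, led by Des, had more type I collagen and fibronectin transcript than the cluster led by Actc1, Myl4 and Tnnt2. Col1a2 stood at 3141 and 2241 CPM in the first and 2087 and 1013 CPM in the second, and Fn1 at 582 and 230 CPM against 117 and 71.6 CPM. For neither gene did the ranges of the 2 clusters overlap.

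The mesothelial-like class of the controls was not uniform either. In control 2, the 70 cells of a cluster led by Col6a5, Igfbp3 and Aqp5 had 831 CPM of Fn1, 2084 of Dcn and 1181 of Fbln2. The 665 cells of the main mesothelial-like cluster had 34.0, 495 and 359 CPM of the same genes. Col14a1 and Ogn were lower in the small cluster, at 519 and 341 CPM against 1216 and 801 CPM. Control 1 had only 8 cells of the small cluster, in which Fn1, Dcn and Fbln2 stood at 1136, 2537 and 1257 CPM, against 38.7, 561 and 320 CPM in its main cluster.

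All sorted cells were then compared as they came, mutant against control, in edgeR's quasi-likelihood test over 16242 genes. No matrix gene passed an adjusted p of 0.05, while 49 genes (0.302%) did, 2 of them higher (0.0123%) and 47 lower (0.289%). At an unadjusted p under 0.05 there were 5 of 32 matrix genes, against 8.71% of all genes, and DESeq2 called 1, Fbln5, against 2.85% of all genes. The median log2 change was 0.04 over the matrix genes and 0.03 over all genes. In these sums, fewer cells of a type and less RNA per cell cannot be told apart. The small libraries (mutant 1 over control 1) had a median of 0.24 over the matrix genes and the large libraries (mutant 2 over control 2) of -0.60, with all genes at 0.00 and -0.09.

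Fbln5 had the lowest p of the 32. It stood at 47.1 CPM in control 1, 55.3 in control 2, 25.5 in mutant 1 and 14.6 in mutant 2. Both mutants were below both controls, and the log2 change was -1.33 with a standard error of 0.29 (edgeR adjusted p = 0.189). Without mutant 1 the log2 change was -1.60, and the range over leaving out each library was -1.60 to -1.09. Over all alternatives its adjusted p (edgeR and DESeq2) ran from 1.16e-04 to 0.520. Dcn stood at 380, 594, 236 and 213 CPM and Ogn at 579, 408, 318 and 152 CPM in the same order, also without overlap, with log2 changes of -1.07 (SE 0.38) and -1.03 (SE 0.37). Tnc stood at 40.2, 28.5, 84.9 and 41.3 CPM and Thbs2 at 59.3, 48.6, 156 and 56.8 CPM. Tnc was higher in both mutants, with mutant 2 just above control 1, and Thbs2 overlapped. Their log2 changes in edgeR were 0.92 (SE 0.31) and 0.99 (SE 0.40). Without mutant 2 these changes were 1.24 and 1.45, and without mutant 1 they were 0.51 and 0.31.

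Counted by overlap alone, Col14a1, Col1a1, Dcn, Fbln5 and Ogn were lower in both mutants, 5 genes against 17.9% of all genes. Emilin1, Fbn2, Mfap2, Tnc and Vcan were higher in both, again 5 genes against 12.6%. Vcan, for example, stood at 224, 149, 273 and 250 CPM. The remaining 22 genes overlapped, among them Fn1 at 220, 164, 399 and 153 CPM and Eln at 740, 561, 853 and 269 CPM.

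The start regions of 2 of these genes are shown because Myrf encodes a transcription factor with a known binding sequence. Fbln5 (ENSMUSG00000021186, chr12:101746565-101819055, minus strand, GRCm38) is shown as the matrix gene with the lowest p, and Mfap2 (ENSMUSG00000060572, chr4:141010418-141015984, plus strand) as the only one with a match. Each line gives the 250 bases before a RefSeq start on GRCm38.p6, 5′ to 3′, at chr12:101819120-101819369 and chr4:141010174-141010423. Capitals mark the letters CTGGCAC or CTGGTAC on either strand.
Fbln5: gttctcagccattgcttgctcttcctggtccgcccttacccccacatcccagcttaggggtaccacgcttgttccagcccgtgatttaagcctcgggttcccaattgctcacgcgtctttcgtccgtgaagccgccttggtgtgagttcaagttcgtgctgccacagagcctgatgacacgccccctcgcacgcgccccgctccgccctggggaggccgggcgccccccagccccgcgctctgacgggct
Mfap2: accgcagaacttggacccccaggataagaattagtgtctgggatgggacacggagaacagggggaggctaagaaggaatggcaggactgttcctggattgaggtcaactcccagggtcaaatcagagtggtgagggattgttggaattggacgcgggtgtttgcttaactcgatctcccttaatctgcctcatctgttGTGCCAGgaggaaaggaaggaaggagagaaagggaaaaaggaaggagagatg
The match in Mfap2 is on the opposite strand and begins 52 bases before the start. Of the 32 genes, 21 were in the RefSeq table used here, with 27 start regions, and 1 region (3.70%) held a match, against 5.92% of 32817 start regions of all genes. A match is a run of letters and not a measured site, and the regions without one say nothing about the factor.

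The 4 mesenchymal classes as a single population (fibroblast-like, muscle-like, smooth muscle-like and pericyte-like cells) ask for a change apart from the loss of mesothelial-like cells. No matrix gene passed, against 3 of 14069 genes (0.0213%). At an unadjusted p under 0.05 there were 3 of 32, against 8.82% of all genes, and DESeq2 called 1, Mfap4, against 2.48% of all genes. The 3 were Mfap4, Emilin1 and Vcan, which were also lower in muscle-like than in fibroblast-like mutant cells. Mfap4 stood at 1420 CPM in control 1, 935 in control 2, 536 in mutant 1 and 500 in mutant 2, a log2 change of -1.10 (SE 0.35, edgeR adjusted p = 0.375). Both mutants were far below both controls. Vcan stood at 579, 455, 290 and 267 CPM and Emilin1 at 113, 101, 60.5 and 61.4 CPM, again with both mutants below both controls. Together with Fbln1, 4 genes were lower without overlap, against 21.8% of all genes, and 0 were higher, against 13.2%. This population was mostly muscle-like in mutant 1, with 220 of 319 cells, and held 0 of 106 such cells in control 1, so the mixture of classes differs between genotypes. With a library left out, the log2 change ran from -1.31 to -0.78 for Mfap4, from -0.91 to -0.64 for Vcan and from -0.83 to -0.57 for Emilin1. Which matrix genes passed, and in which direction, depended on the library left out, as counted in the last section.

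Fibroblast-like cells are a class present in both genotypes, and most matrix genes were lower there in the mutants. Of 31 matrix genes tested, 27 had a log2 change below 0, with a median of -0.66 against 0.01 over all 12143 genes. None passed in edgeR, and no other gene did (0.0%), and the lowest adjusted p of the 31 was 0.9997. At an unadjusted p under 0.05 there were 7, against 2.09% of all genes, and DESeq2 called 3 (Col14a1, Fbln5 and Ogn), against 0.042% of all genes. Lower without overlap were 10 genes, against 14.3% of all genes, and 0 were higher, against 8.43%. The median came from the large libraries: it was -1.21 in mutant 2 over control 2, where 31 genes were lower, and 0.13 in mutant 1 over control 1, where 13 were. All genes had medians of -0.22 and 0.08 in these pairs. How many of all genes lay below 0 in the fit or in each pair was not counted.

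The lowest p-values belonged to 3 genes that were highest in mesothelial-like cells in both controls. Fbln5 stood at 23.2 CPM in control 1, 56.2 in control 2, 6.05 in mutant 1 and 6.18 in mutant 2, a log2 change of -2.60 (SE 0.44). Ogn stood at 261, 406, 80.4 and 115 CPM, a log2 change of -1.65 (SE 0.39). Col14a1 stood at 227, 323, 120 and 69.1 CPM, a log2 change of -1.51 (SE 0.32). In all 3 genes both mutants were below both controls, and each change stayed below 0 with any library left out (adjusted p from 4.44e-11 to 0.99999 over these and the other alternatives, edgeR and DESeq2). The mesothelial marker list summed to 40.5, 114, 89.3 and 21.6 CPM in fibroblast-like cells and to 5175 and 4619 CPM in mesothelial-like control cells. Of the mutant 1 sum, Aldh1a2 alone made up 78.3 CPM. Upk3b stood at 5.34, 24.7, 0.36 and 0.15 CPM in fibroblast-like cells and Krt19 at 2.67, 6.05, 0.36 and 0.29 CPM. These markers, Upk1b, Lrrn4, Krt18, Cldn15 and Gpm6a were lower in both mutants. Aldh1a2, Wt1, Rspo1, Msln and Bnc1 overlapped. The list's part in the differences was not tested.

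**Figure D4:**
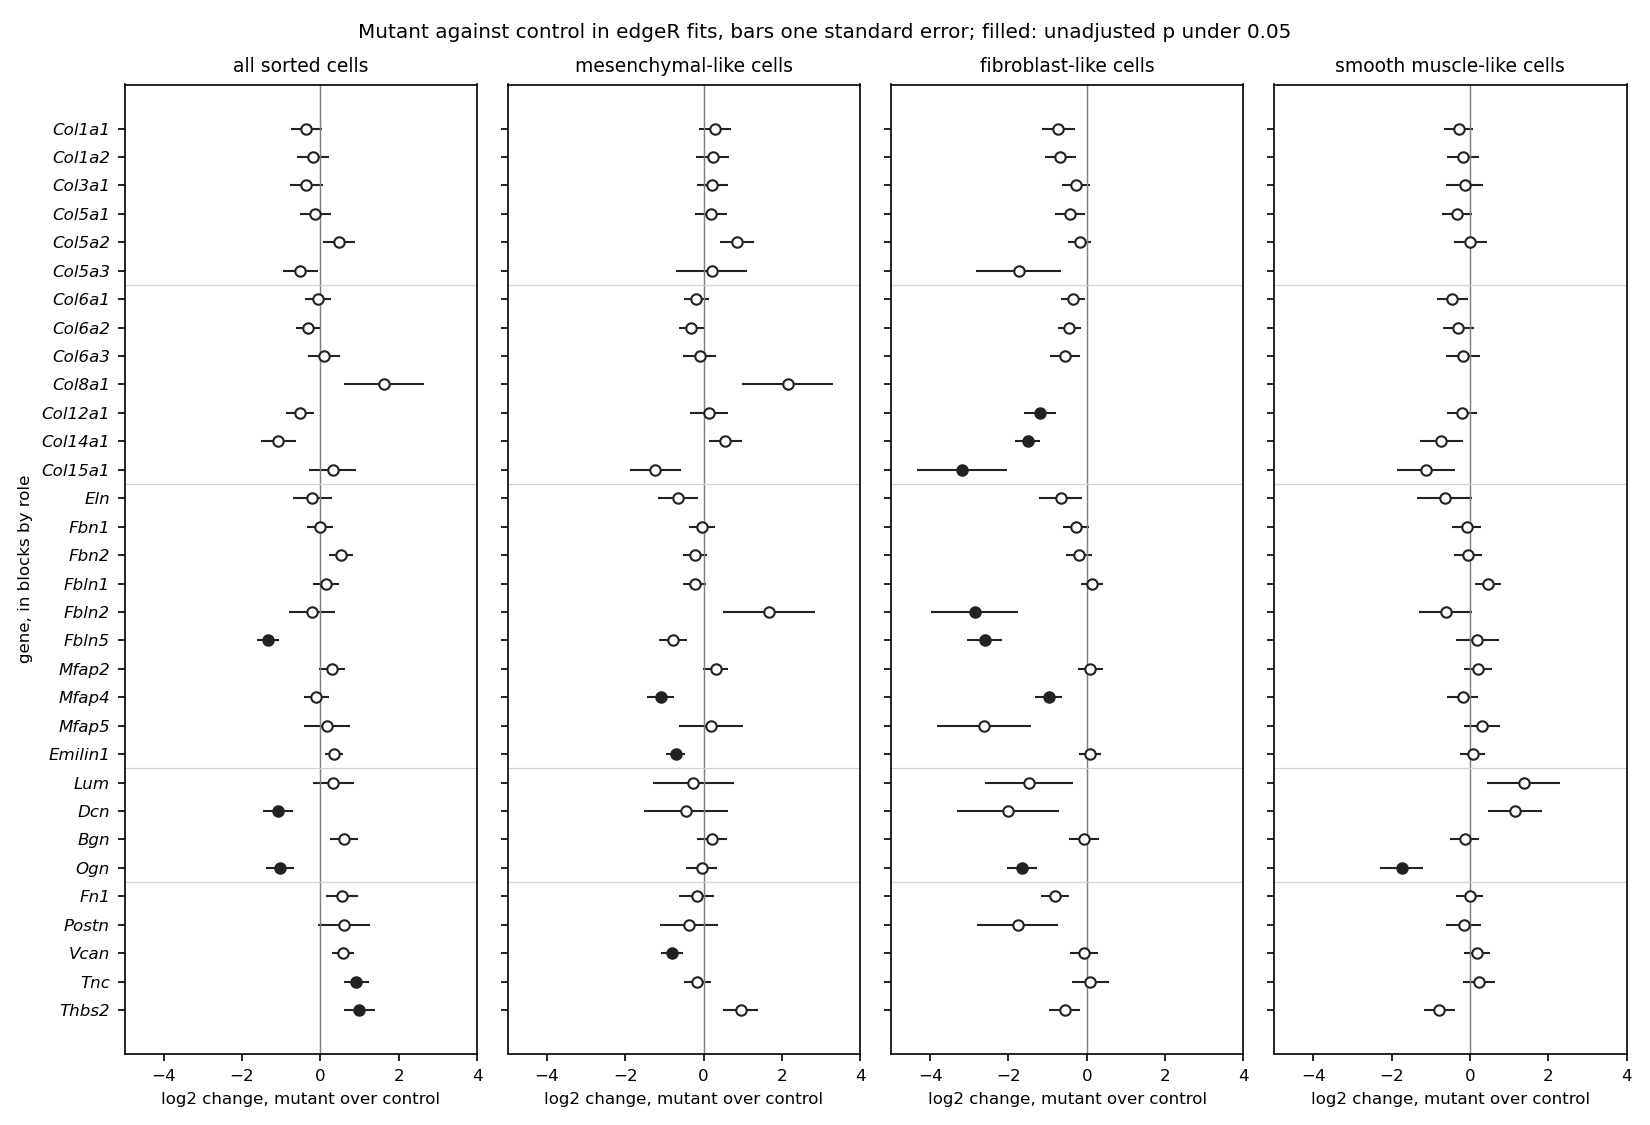
Log2 change of each matrix gene, mutant over control (x axis), in edgeR fits of 4 cell populations; points are fitted changes, bars are 1 standard error and filled points have an unadjusted p under 0.05. No gene passed the adjusted threshold, and in fibroblast-like cells 27 of 31 points lie below 0. The median over all genes in that fit was 0.01.

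The class has 3 clusters, led by Tcf21, by Lef1 and by Dpt. The Dpt cluster held 0 cells of control 1, 70 of control 2, 1 of mutant 1 and 14 of mutant 2. Its cells were rich in matrix, with 4624 and 7824 CPM of Dcn in control 2 and mutant 2, 2058 and 2002 of Postn, 7468 and 10710 of Col1a1, and 1418 and 1215 of Ogn. In the class as a whole, control 2 stood far above control 1 for Dcn at 928 against 31.2 CPM, Postn at 409 against 21.8 CPM and Fbln2 at 175 against 5.79 CPM. Without the Dpt cluster the log2 change of Fbln2 went from -2.86 to -0.28, of Col15a1 from -3.18 to -1.08 and of Col12a1 from -1.20 to -0.28. Fbln5, Ogn, Col14a1 and Mfap4 kept -1.77, -1.20, -1.14 and -1.06. These fits were added after the data were seen, and no gene passed in them either. Leaving out a library instead moved the log2 change of Fbln2 to -3.78 without control 1 and to 1.15 without control 2. That of Fbln5 ran from -3.06 to -1.78. Which matrix genes passed, and in which direction, depended on the library left out, as counted in the last section.

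Within the Tcf21 cluster, the largest fibroblast-like group, Ogn stood at 446 CPM in control 1, 318 in control 2, 218 in mutant 1 and 174 in mutant 2. Fbln5 stood at 38.2, 19.6, 14.1 and 6.20 CPM. Both kept the order of controls above mutants, with log2 changes of -0.90 and -1.66. Mfap4 was at 2646, 1931, 2149 and 751 CPM and Col14a1 at 366, 266, 308 and 92.8 CPM, and in both the 2 genotypes overlapped because only mutant 2 was low. The Lef1 cluster had little of Ogn, at 13.5, 12.1, 3.00 and 4.04 CPM, and of Mfap4, at 166, 132, 155 and 151 CPM, but had much Tnc, at 152, 122, 209 and 95.9 CPM. The make-up of the class differed too: the Tcf21 cluster was 42 of 76 fibroblast-like cells in control 1, 199 of 396 in control 2, 28 of 73 in mutant 1 and 1263 of 1880 in mutant 2.

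**Figure D5:**
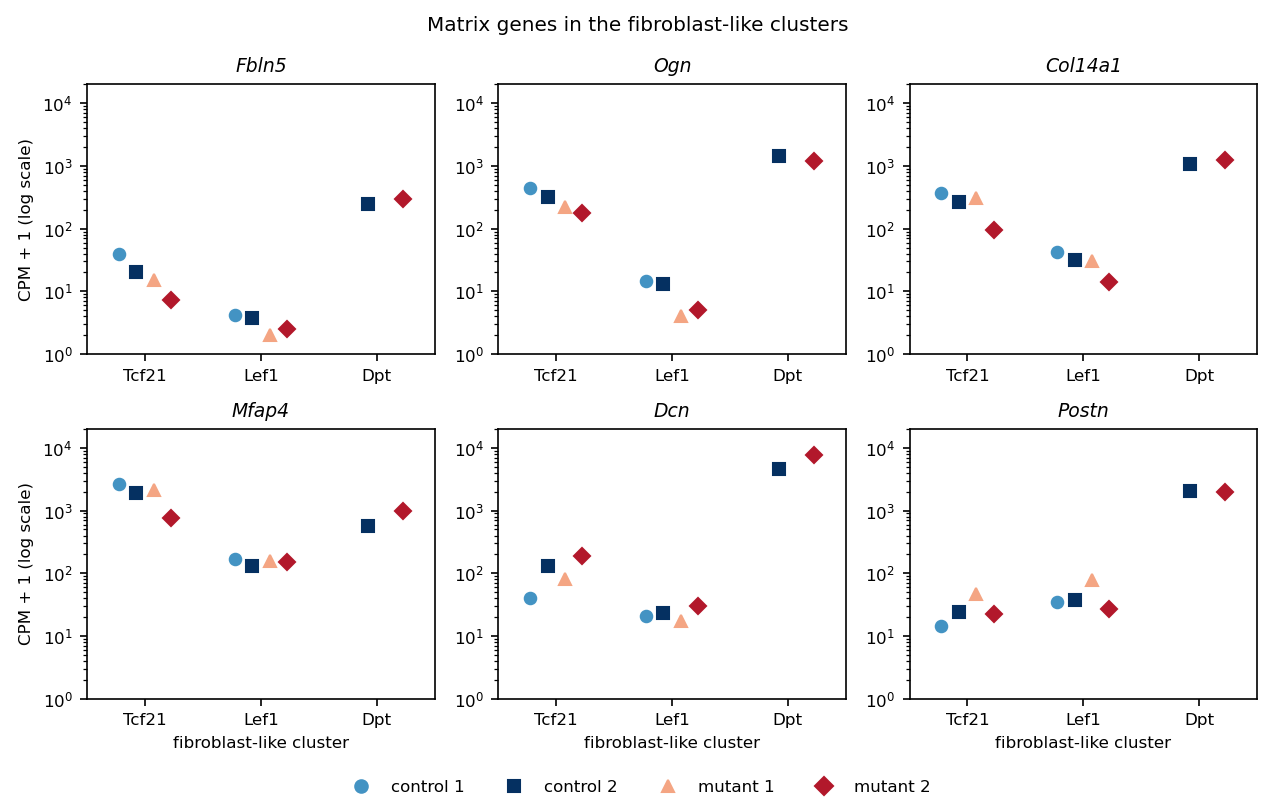
CPM + 1 (log scale) of 6 matrix genes in the 3 fibroblast-like clusters, named by a leading gene (x axis), with 1 point for each library that had at least 10 cells there. Dcn, Postn, Fbln5 and Ogn are highest in the Dpt cluster, which only control 2 and mutant 2 fill, and in the Tcf21 cluster Ogn and Fbln5 lie lower in both mutants than in both controls.

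In smooth muscle-like cells, Ogn had the lowest p. Of 30 genes tested, none passed in edgeR, nor did any of all 10465 genes (0.0%). Ogn alone had an unadjusted p under 0.05, against 0.841% of all genes, and DESeq2 called 0 (0.0% of all genes). In simulated counts edgeR recovered 6% of 2-fold and 70% of 4-fold changes here, so changes of this size can go uncalled. The median log2 difference was -0.10 between the small libraries and -0.62 between the large ones, where 24 of 30 genes were lower. All genes had medians of -0.00 and -0.22, and how many of them were lower was not counted. Ogn stood at 30.02 CPM in control 1, 85.2 in control 2, 24.4 in mutant 1 and 12.8 in mutant 2, a log2 change of -1.75 (SE 0.56). Mutant 1 lay close under control 1. Lower without overlap were Col12a1, Col1a1, Ogn and Thbs2, 4 genes against 16.4% of all genes, and higher was Fbln1, 1 gene against 6.48%. Mfap2, which encodes the microfibril protein MAGP1, stood at 576, 634, 660 and 625 CPM, with a log2 change of 0.20 (SE 0.35). The log2 change of Ogn was -0.65 without control 2. Without mutant 1 it was -2.07, in a comparison where mutant 2, the library low in matrix, stands alone.

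The genes that process, assemble, cut and bind this matrix were counted in the same fits. Of 26 genes of collagen modification and cross-linking, 25 were tested in all sorted cells and 0 passed in edgeR, with 3 at an unadjusted p under 0.05, against 8.71% of all genes in this fit. Serpinh1, the collagen chaperone HSP47, stood at 999, 1025, 899 and 797 CPM in control 1, control 2, mutant 1 and mutant 2, and Ppib, a prolyl isomerase, at 539, 688, 518 and 640 CPM. Within classes, Serpinh1 was at 1386 and 1466 CPM in mesothelial-like control cells and at 1074 and 1002 CPM in muscle-like mutant cells, with 582 to 743 CPM in fibroblast-like cells of the 4 libraries.

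Of 13 partners of elastic fibre assembly, all were tested in all sorted cells, and 1 passed and fell. That was Efemp1, which encodes fibulin-3, at 60.7, 55.6, 5.08 and 3.77 CPM (log2 change -3.66, SE 0.23, edgeR adjusted p = 0.00678). It lay mainly in mesothelial-like control cells, at 117 and 122 CPM, and was at 5.97 and 9.38 CPM in muscle-like mutant cells and 0 to 2.23 CPM in fibroblast-like cells. Ltbp4, which helps fibulin-5 and elastin assemble, was at 246, 237, 155 and 89.1 CPM (log2 change -0.95, SE 0.29, edgeR adjusted p = 0.374), and Ltbp3 at 95.5, 92.1, 138 and 62.1 CPM.

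Of the 19 genes of matrix turnover, 19 were tested and 0 passed in edgeR, with 4 at an unadjusted p under 0.05, where the share of all genes was 8.71%. The inhibitor Timp2 stood at 435, 453, 330 and 182 CPM and the protease Adamts1 at 239, 190, 339 and 176 CPM. Of 42 other interstitial matrix genes, 39 were tested and 0 passed, with 17 at an unadjusted p under 0.05, against the same 8.71%, and a median log2 change of -0.40 against 0.03 over all genes. Sparc, a collagen-binding protein, stood at 3044, 3091, 2693 and 1362 CPM, and Mgp, the matrix Gla protein, at 1208, 1417, 1926 and 1316 CPM. Mgp was at 1249 and 1376 CPM in mesothelial-like control cells and at 2435 and 2086 CPM in muscle-like mutant cells. Of 19 matrix receptors, 19 were tested and 0 passed, with 6 at an unadjusted p under 0.05 (8.71% of all genes). Itgb1, the shared beta chain of the collagen and fibronectin receptors, stood at 841, 622, 1117 and 594 CPM, and Sdc2 (syndecan-2) at 140, 112, 121 and 122 CPM. In the mesenchymal, fibroblast-like and smooth muscle-like fits, 0 genes of the 5 lists passed in edgeR. At an unadjusted p under 0.05 there were 27 of 112 in the mesenchymal fit (8.82% of all genes), 11 of 100 in the fibroblast-like fit (2.09%) and 3 of 89 in the smooth muscle-like fit (0.841%).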

How the data were processed

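Lung tdTomato+ cells of 4 libraries were profiled with 10x 3′ v3 chemistry, per the labels' protocols. The authors deposited raw UMI counts per gene and cell barcode, made with Cell Ranger 6.0.2 on mm10 per the submitters' processing notes; the annotation release is not given in the sources used here. The 32 genes, the gene lists and the tests were chosen with earlier results of these data known.

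Barcodes with at least 1000 genes and at most 15% mitochondrial UMIs were kept. Scrublet scores served to remove the highest-scoring barcodes, 0.8% per 1000 barcodes, because its own threshold marked only 0 to 3 per library. Cells were clustered with scanpy 1.11.5 (3000 variable genes without the 32 genes, 30 principal components, 15 neighbours, Leiden resolution 0.4, igraph 0.11.9). A cluster took the name of a marker list with at least 3 markers raised 2-fold. It was called mixed instead if at least 66% of the markers of all lists lay within 2-fold of the other cells. Those other cells were taken from the library that gave the cluster most of its cells. A difference from the study may come from these rebuilt names.

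UMI counts were summed per library and population and tested with edgeR 4.0.16 in R 4.3.3 (filterByExpr, TMM, quasi-likelihood test, two-sided, Benjamini-Hochberg adjustment over all genes tested, threshold 0.05). The rule for named genes took all 32 genes by role and, of each accompanying list, the 2 genes with the highest mean CPM and any that passed. Which of the 32 are given with values in every library was chosen after their values were seen. On simulated counts with 200 changed genes, edgeR recovered 88% of 4-fold and 16% of 2-fold changes in all sorted cells, 96% and 14% in the mesenchymal classes, 94% and 12% in fibroblast-like cells, and 70% and 6% in smooth muscle-like cells.

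Alternatives were RLE normalization, DESeq2 1.42.0, no low-count filter, the replicate number as a block, leaving out each library, doublets kept, a stricter cell filter, mixed barcodes left out, equal cell numbers, clustering with the 32 genes and resolution 0.8. Added after seeing the data were an unnamed cluster counted as fibroblast-like and single fibroblast-like clusters left out or alone, and a level filter on the mean of all 4 values in the class comparisons. Gene positions are from GENCODE vM21.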

Additional observations from a re-analysis of the deposited data

How the results depend on the processing

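No matrix gene passed in any of the 4 edgeR comparisons of mutant with control. Of the values that answer a comparison, 85 were labelled the same under an alternative and 26 moved. A count of calls was the same if it stayed at 0. A share or level was the same if its mean shifted by no more than the SD of the 2 libraries. That SD is wide for the mesothelial-like and muscle-like shares, so the label is a loose one there. In all sorted cells, 1 gene was called without the low-count filter (of 733 of all genes) and 1 by DESeq2 (of 480), and leaving out a library gave 0 to 3 calls: 2 lower without mutant 1 (Fbln2, Fbln5, of 1159) and 3 higher without mutant 2 (Col8a1, Thbs2, Tnc, of 529). In the mesenchymal classes the counts were 4 without the filter (of 837), 1 by DESeq2 (of 361) and 0 to 4 with a library left out: 4 higher without control 2 (of 243), 1 lower without mutant 1 (of 129) and 3 higher without mutant 2 (of 517). In fibroblast-like cells they were 10 without the filter (of 137), 3 by DESeq2 (of 8) and 0 to 10 with a library left out: 10 lower without control 1 (of 139), 1 higher without control 2 (of 47) and 4 lower without mutant 1 (of 57). In smooth muscle-like cells leaving out a library gave 0 to 6 calls (6 of 336 without mutant 1). A group with 1 library left is assumed to vary like the other. With a library left out, 15926 to 17410 genes were tested in all sorted cells and 14213 to 14999 in the mesenchymal classes. In fibroblast-like cells 11413 to 13487 were tested, and in smooth muscle-like cells 7924 to 11662. With the replicate number as a block, 2 genes were called in all sorted cells (Col14a1, Ogn, of 478) and 2 in fibroblast-like cells (Fbln5 at -2.63 and Ogn at -1.68, of 19). In the other comparisons 0 were called. The labels give a shared number only. Deviations of same-numbered libraries from their group means correlated at 0.358. With 2 libraries in each group this is a single value, the same for both pairs by construction. The cause of the changes under the alternatives was not tested. In fibroblast-like cells Fbln2 ranged from -3.78 to 1.15 with a library left out (1.15 without control 2) and was at 0.027 in the Lef1 cluster alone, and Mfap4 at 0.109 in the Lef1 cluster alone, against log2 changes below 0 otherwise. The mean muscle-like share of control matrix UMIs, 0.160%, was 0.407% with the 32 genes in the clustering and 0.388% at resolution 0.8. The smooth muscle-like control share, 6.37%, was 8.09% without mixed barcodes and 7.83% with each gene weighing the same. The fibroblast-like control share, 20.2%, was 23.5% with the 32 genes in the clustering, 23.4% at resolution 0.8, 23.3% with the unnamed cluster added, 26.0% without mixed barcodes and 25.3% with each gene weighing the same. Smooth muscle-like values of control 1 and mutant 1 rest on 19 and 24 cells, so low genes are imprecise there.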
